A study of Mus musculus with 4 samples.

Results

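The EGF family ligands and ERBB receptors were followed as 10 genes, chosen by symbol: the ligand genes Areg, Epgn, Nrg1, Hbegf, Btc and Tgfa, and the receptor genes Egfr, Erbb2, Erbb3 and Erbb4. All 10 were among the 27998 genes of the count tables. Expression had been measured in single mammary epithelial cells of untreated female FVB/NJ mice, on a droplet platform that counts molecules at the 3′ end of transcripts. Puberty was sampled at 5 weeks of age, and adulthood at 10 weeks in estrus or in diestrus, the phases being read from vaginal cytology. Each adult library pooled the glands of a pair of mice. In all groups the cells had been sorted as negative for blood and vessel lineage antigens and positive for CD24. Ligands made by the stroma were not measured.

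Ligands of the EGF family are made as membrane proteins, and sheddases release them from the cell surface. EGFR binds AREG, EPGN, HBEGF, BTC and TGFA, and ERBB3 and ERBB4 bind neuregulins such as NRG1, without these lists being exclusive. ERBB2 binds no known ligand but pairs with the other receptors. In the mammary gland, AREG is known as the estrogen-induced ligand through which luminal cells drive the growth of ducts at puberty.

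The puberty library held 5387 cells, the estrus library 2729 and the diestrus library 2439, with medians of 3236 to 4123 molecules per cell. Puberty had a second table over the same barcodes, which was treated as the same library, so that each stage had 1 library and no comparison between stages had a replicate or a test. By clusters, cells were called basal, luminal progenitor (LP, the KIT and ELF5 lineage) or mature luminal (ML, the hormone-sensing lineage), and the 10 genes and 51 pathway genes were held out of the clustering. Of the markers that named the lineages, Krt14 was found in 87.6% to 98.1% of basal cells, Csn3 in 83.0% to 95.5% of LP cells and Cited1 in 91.8% to 99.1% of ML cells. Basal cells numbered 1138, 1282 and 1053 in puberty, estrus and diestrus, LP cells 1770, 484 and 582, and ML cells 2151, 758 and 689. Any pair of libraries shared at most 24 barcodes. Few cells carried at least 3 of 5 markers of another type: 36 fibroblast, 9 endothelial, 3 erythroid and 1 immune. In the sums of the lineages, in counts per 1000000 (CPM), the fibroblast list reached 698 CPM in ML cells of diestrus, all of it Dcn with the collagen genes and Pdgfra at 0, and the erythroid list reached 542 CPM in ML cells of estrus. The immune list reached 34.7 CPM with Ptprc at 0 in 8 of 9 sums, and the endothelial list 22.2 CPM with Cdh5 at 0 in 8 of 9. The part of these cells in the results was not tested.

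Levels are given as CPM in the summed cells of a lineage and library, on totals scaled by the trimmed mean of M values (TMM), with exact Poisson 95% intervals that cover counting error only. Lineages were compared over the 3 libraries with edgeR's quasi-likelihood test, with a library block and adjusted p-values over 11178 genes. Of the 10 genes, 9 passed the filter on low counts, and Erbb4 did not. Basal and LP cells differed for 7 of these 9 genes, against 44.4% of all tested genes. Basal cells were higher for 3 and lower for 4, where 22.0% of all tested genes were higher and 22.3% lower. Basal and ML cells differed for all 9 tested genes, against 54.9% of all genes. Basal cells were higher for 4 and lower for 5, where 29.0% of all genes were higher in basal and 25.9% in ML cells. LP and ML cells differed for 8, against 40.2% of all genes. LP cells were higher for 3 and lower for 5, where 21.2% of all genes were higher in LP and 19.0% in ML cells.

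**Figure D1:**
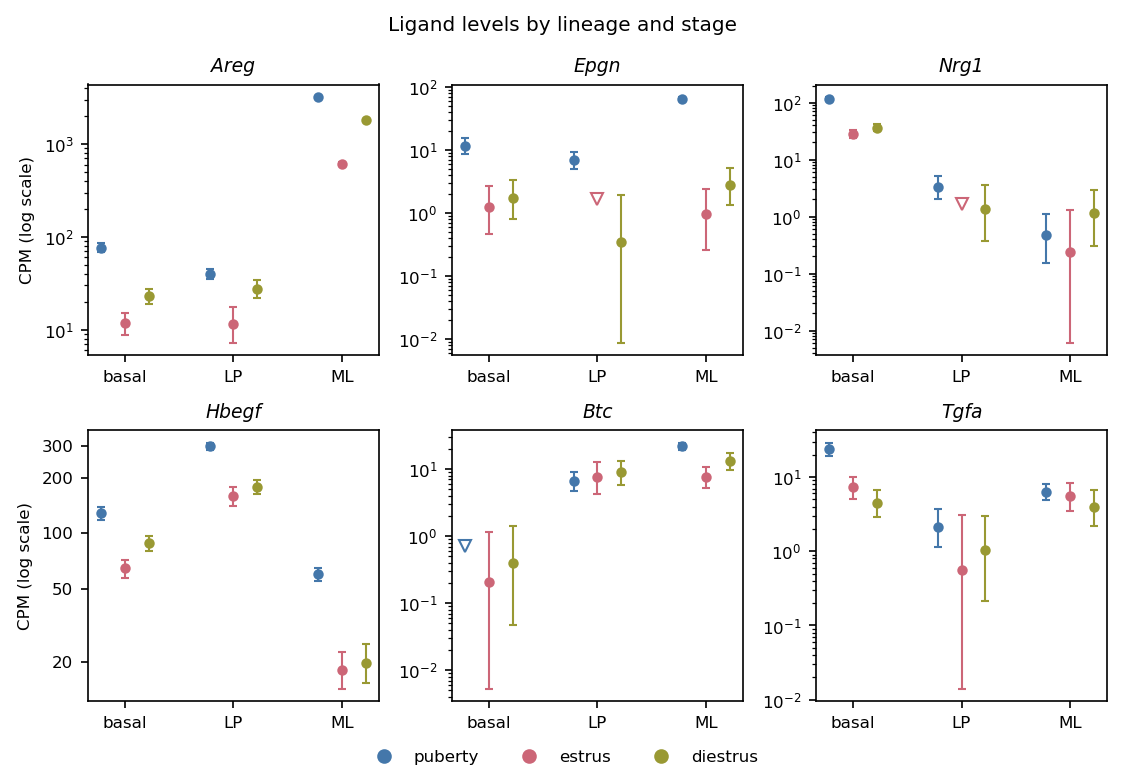
Levels of the 6 ligand genes in CPM on a log axis, by lineage, for puberty, estrus and diestrus. Points are 1 library each with exact Poisson 95% intervals, and open triangles mark the limit set by 3 counts where no molecule was counted. Areg and Epgn in puberty were highest in ML cells, Nrg1 in basal cells and Hbegf in LP cells.

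Areg, the amphiregulin gene, was a ligand of ML cells at every stage. Its level in ML cells was 3194 CPM in puberty (3160 to 3228), 609 CPM in estrus (585 to 633) and 1834 CPM in diestrus (1789 to 1879). Basal cells held 76.7, 11.7 and 23.0 CPM and LP cells 39.8, 11.6 and 27.6 CPM in the same order, so that no basal or LP value came near an ML value. The log2 fold change of basal against ML cells was -5.76 ± 0.23 (SE, adjusted p = 2.58e-08, edgeR), and that of LP against ML cells was -6.11 ± 0.24 (adjusted p = 6.76e-08, edgeR). Both were lower than ML in 3 of 3 libraries. Basal and LP cells did not pass the test against each other (log2 fold change 0.35 ± 0.22, adjusted p = 0.233, edgeR), although they did without the diestrus library (0.67, adjusted p = 0.0319). The Areg left in basal and LP cells was 1.25% to 2.40% of the ML level. The 8 ML marker genes that named the lineage had 0.45% to 12.4% of their ML level in those cells, with medians of 0.86% to 3.32% per sum. The Areg of basal and LP cells was within this wide range. In basal cells it was above the marker median in puberty (2.40% against 1.04%) and estrus (1.92% against 0.86%), but not in diestrus (1.25% against 1.28%). In LP cells it was below the median at each stage. Whether it was made by these cells or carried over from ML cells was not tested.

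Areg and Epgn, both highest in ML cells, lie near each other on chromosome 5 of the mouse assembly GRCm38, at 91139599 to 91148432 and 91027464 to 91035215 on the plus strand, and Btc lies at 91357261 to 91402994 on the minus strand. Their promoter windows are shown because these 3 neighbours were all lower in basal than in ML cells and all had their highest ML level in puberty. The pattern does not cover the whole region. Ereg, a ligand gene between Epgn and Areg, had 11.3 CPM in basal cells of puberty and 0.937 CPM in ML cells. The sequences, from RefSeq on GRCm38, run from 250 bases before the start of transcription to 50 bases after it. A promoter window was found for 7 of the 10 genes. Capitals mark matches to TGACG, the core of the cyclic AMP response element (CRE), and to TATAAA, on either strand:
Areg, chr5:91139349-91139648, plus strand: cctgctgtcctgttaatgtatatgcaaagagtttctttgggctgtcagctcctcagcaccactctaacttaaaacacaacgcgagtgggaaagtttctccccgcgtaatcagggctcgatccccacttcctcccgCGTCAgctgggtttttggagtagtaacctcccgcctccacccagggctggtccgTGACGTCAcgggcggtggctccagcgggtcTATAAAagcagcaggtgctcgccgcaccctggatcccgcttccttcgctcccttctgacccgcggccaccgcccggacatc
Epgn, chr5:91027267-91027566, plus strand: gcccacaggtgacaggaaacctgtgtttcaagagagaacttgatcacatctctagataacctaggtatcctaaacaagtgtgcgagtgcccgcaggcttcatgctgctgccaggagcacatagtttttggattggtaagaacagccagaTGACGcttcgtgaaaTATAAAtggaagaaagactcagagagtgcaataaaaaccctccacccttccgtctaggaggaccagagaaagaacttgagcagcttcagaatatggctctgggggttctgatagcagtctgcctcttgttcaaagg
Btc, chr5:91402945-91403244, minus strand: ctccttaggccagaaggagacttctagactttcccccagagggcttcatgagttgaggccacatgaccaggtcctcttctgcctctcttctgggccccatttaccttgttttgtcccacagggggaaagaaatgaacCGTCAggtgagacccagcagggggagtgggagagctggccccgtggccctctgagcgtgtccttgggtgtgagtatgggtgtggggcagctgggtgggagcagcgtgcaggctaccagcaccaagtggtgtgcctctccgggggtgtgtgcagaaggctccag
The Areg window held the full palindromic CRE, TGACGTCA, starting at position -61 from the start of transcription, and TATAAA at -31. The full CRE contains the core on both strands, so that 2 of the 3 cores in the Areg window lie within it. It was present in 1.88% of 27025 promoter windows of the same length, the core in 21.0% and TATAAA in 14.2%. The Epgn window held the core at -101 and TATAAA at -86, whereas the Btc window held the core at -113 and no TATAAA. The start used for the Epgn window lies inside the gene as given above, which begins at 91027464. Both Epgn matches are therefore nearer to that beginning than these positions show. The AP-1 letters TGANTCA, present in 7.93% of all windows, matched none of the 3. These matches describe letters in a window and say nothing of binding.

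Epgn, which encodes epigen, had its highest levels in puberty in each of the 3 lineages. ML cells had 64.8 CPM in puberty (60.1 to 69.9), 0.955 CPM in estrus (0.26 to 2.45) and 2.84 CPM in diestrus (1.36 to 5.22). Only 4 and 10 molecules stood behind the adult ML values, against 692 in puberty. In basal cells the levels were 11.5, 1.25 and 1.77 CPM, and in LP cells 6.91, 0 and 0.346 CPM. Within puberty the ML level thus exceeded both other lineages, whereas the adult levels of the 3 lineages had overlapping intervals. Across the libraries Epgn was higher in ML than in LP cells (log2 fold change of LP against ML -3.05 ± 0.47, adjusted p = 0.000459, edgeR) and than in basal cells (-1.80 ± 0.43, adjusted p = 0.00448). The direction against basal cells held in 2 of 3 libraries, and without the puberty library Epgn did not pass the filter on low counts.

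Epgn molecules were concentrated in few cells. In the puberty ML class, 19 of 2151 cells with at least 10 molecules each held 51.9% of its Epgn molecules, and the highest cell had 39. These 19 cells came from 6 clusters and had a median of 5559 molecules in total. Their Areg level was 3417 CPM, against 2981 CPM in the 2004 ML cells with no Epgn molecule, whose median total was 4598.5. Among LP cells of puberty, the 16 cells with 1 to 9 Epgn molecules had 366 CPM of Areg, against 28.0 CPM in those with none. Their median totals were 4439.5 and 3731 molecules. The median cell of both groups held 0 Areg molecules, so the difference rested on a minority of cells. The 1 LP cell with 12 Epgn molecules held no Areg. Whether cells with Epgn were droplets with more than 1 cell was not tested.

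Nrg1, the neuregulin gene at 31814551 to 32884029 on the minus strand of chromosome 8, was a ligand of basal cells. Basal levels were 116 CPM in puberty (106 to 127), 28.4 CPM in estrus (23.8 to 33.6) and 36.3 CPM in diestrus (31.3 to 42.0). LP cells had 3.29, 0 and 1.38 CPM and ML cells 0.469, 0.239 and 1.14 CPM in the same order. The lowest basal value was above the highest luminal value. The log2 fold change was 5.11 ± 0.38 against LP cells (adjusted p = 2.38e-06, edgeR) and 7.0 ± 0.43 against ML cells (adjusted p = 3.98e-07). LP cells were called above ML cells (1.89 ± 0.66, adjusted p = 0.0424), but this rested on 24 molecules in LP and 10 in ML cells, and without the puberty library the fold change was 0.24 (adjusted p = 0.889). It was lost without the estrus library as well (2.0, adjusted p = 0.0549) and with the second puberty table (0.72, adjusted p = 0.396).

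Hbegf, which encodes heparin-binding EGF-like growth factor, was shared by all 3 lineages and was highest in LP cells. LP levels were 297 CPM in puberty (283 to 311), 160 CPM in estrus (142 to 179) and 179 CPM in diestrus (164 to 195). Basal cells had 128, 64.4 and 88.2 CPM and ML cells 59.8, 18.1 and 19.9 CPM. At each stage the order was LP, basal, ML, with no overlap of intervals between neighbours. Basal cells differed from LP cells by -1.17 ± 0.18 on the log2 scale (adjusted p = 0.000391, edgeR) and from ML cells by 1.61 ± 0.19 (adjusted p = 4.71e-05). LP cells exceeded ML cells by 2.78 ± 0.20 (adjusted p = 1.82e-06, edgeR). A molecule of Hbegf was found in 34.7%, 25.6% and 32.3% of LP cells in puberty, estrus and diestrus. Among the 1608, 401 and 513 LP cells with at least 2000 molecules, thinned to that number, it was found in 24.6%, 20.2% and 21.8%.

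Btc, the betacellulin gene, was a luminal ligand at low level. ML cells had 21.7 CPM in puberty (19.0 to 24.7), 7.64 CPM in estrus (5.23 to 10.8) and 13.1 CPM in diestrus (9.56 to 17.4), and LP cells had 6.59, 7.73 and 8.98 CPM. Basal cells had 0, 1 and 2 molecules, or at most 0.393 CPM. Basal cells were lower than LP cells (-4.94 ± 0.66, adjusted p = 0.00015, edgeR) and than ML cells (-5.87 ± 0.59, adjusted p = 1.31e-05). The difference between LP and ML cells did not pass the test (-0.93 ± 0.35, adjusted p = 0.059). It was -1.26 without the estrus library (adjusted p = 0.0387) and -0.34 without the puberty library (adjusted p = 0.517).

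Tgfa, which encodes transforming growth factor alpha (chromosome 6, 86195223 to 86275719, plus strand), was highest in basal cells of puberty. Basal levels were 23.8 CPM in puberty (19.4 to 29.0), 7.30 CPM in estrus (5.08 to 10.2) and 4.52 CPM in diestrus (2.86 to 6.78). ML cells had 6.37, 5.49 and 3.97 CPM and LP cells 2.14, 0.552 and 1.04 CPM. In both adult libraries the intervals of basal and ML cells overlapped. Basal cells exceeded LP cells by 3.05 ± 0.47 (adjusted p = 0.00037, edgeR), and ML cells exceeded LP cells (LP against ML -2.03 ± 0.50, adjusted p = 0.00852). The call of basal above ML cells (1.03 ± 0.35, adjusted p = 0.0303) was lost without the puberty library (0.25, adjusted p = 0.625).

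**Figure D2:**
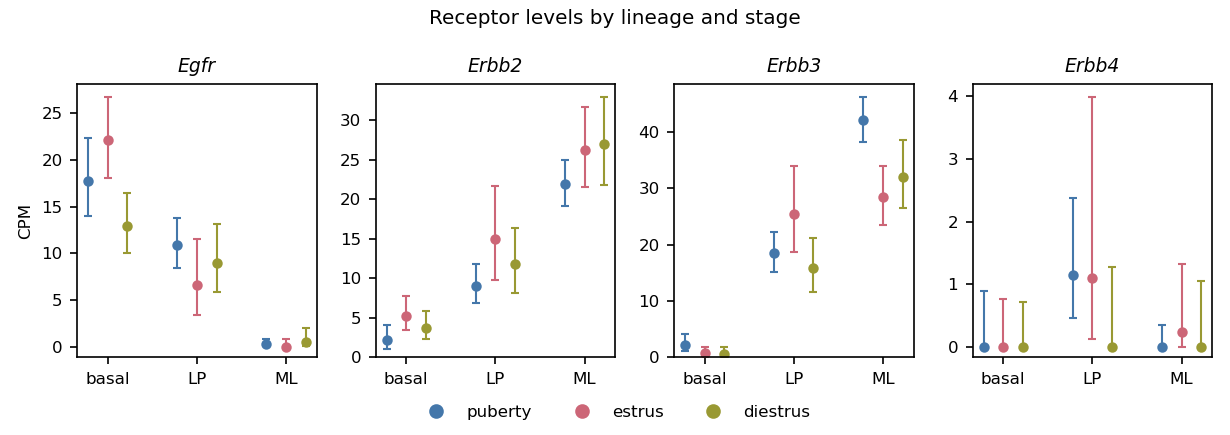
Levels of the 4 receptor genes in CPM on linear axes, by lineage, for puberty, estrus and diestrus. Points are 1 library each with exact Poisson 95% intervals. Egfr was lowest in ML cells, Erbb2 and Erbb3 were lowest in basal cells, and Erbb4 did not exceed 1.15 CPM.

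Egfr (chromosome 11, 16752203 to 16918158, plus strand) was held by basal and LP cells and was nearly undetected in ML cells, where Areg was highest. Basal levels were 17.8 CPM in puberty (14.0 to 22.3), 22.1 CPM in estrus (18.1 to 26.7) and 13.0 CPM in diestrus (10.0 to 16.5). LP cells had 10.9, 6.62 and 8.98 CPM. In ML cells 3, 0 and 2 molecules were counted in puberty, estrus and diestrus, and the limit of 3 counts for the 0 of estrus is 0.716 CPM. Basal cells exceeded ML cells by 5.93 ± 0.48 on the log2 scale (adjusted p = 2.82e-06, edgeR), and LP cells exceeded ML cells by 5.00 ± 0.52 (adjusted p = 3.34e-05). Basal cells were also above LP cells (0.93 ± 0.30, adjusted p = 0.0286), with intervals apart in puberty and estrus but not in diestrus. This call was lost without the estrus library (0.66, adjusted p = 0.116) or without the puberty library (1.07, adjusted p = 0.0781).

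Erbb2 (chromosome 11, 98412470 to 98437716, plus strand) had the opposite order. ML cells had 21.9 CPM in puberty (19.2 to 24.9), 26.3 CPM in estrus (21.6 to 31.7) and 27.0 CPM in diestrus (21.8 to 33.0). LP cells had 9.05, 14.9 and 11.7 CPM and basal cells 2.16, 5.21 and 3.73 CPM, so that the values of the 3 lineages did not overlap, while the LP and ML intervals met in estrus. The log2 fold change was -1.66 ± 0.25 for basal against LP cells (adjusted p = 0.000348, edgeR), -2.78 ± 0.23 for basal against ML cells (adjusted p = 3.09e-06) and -1.11 ± 0.20 for LP against ML cells (adjusted p = 0.00147). The last bases of Erbb2 overlap Mien1 on the other strand, and whether the counting used strand is not given in the sources used here.

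Erbb3, the receptor for neuregulins that lacks strong kinase activity of its own (chromosome 10, 128567523 to 128589652, minus strand), was luminal too. ML cells had 42.1 CPM in puberty (38.3 to 46.2), 28.4 CPM in estrus (23.5 to 34.0) and 32.1 CPM in diestrus (26.4 to 38.6), and LP cells had 18.4, 25.4 and 15.9 CPM. Basal cells, where Nrg1 was highest, had 2.16, 0.626 and 0.589 CPM of Erbb3. Basal cells were below LP cells by -4.13 ± 0.38 (adjusted p = 1.17e-05, edgeR) and below ML cells by -4.96 ± 0.36 (adjusted p = 1.18e-06). LP cells were below ML cells by -0.83 ± 0.25 (adjusted p = 0.0222). In estrus the intervals of LP and ML cells overlapped, and the call was lost without the puberty library (adjusted p = 0.108) or without the diestrus library (adjusted p = 0.0776).

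Erbb4 (chromosome 1, 68032186 to 69108059, minus strand), which 8 other annotated genes overlap on its own strand, was counted 9 times in LP cells, once in ML cells and not in basal cells. LP levels were 1.15 CPM in puberty, 1.10 CPM in estrus and 0 in diestrus, where the limit of 3 counts is 1.04 CPM. In puberty the LP interval (0.463 to 2.37 CPM) lay above that of ML cells (0 to 0.346 CPM). Over the 3 libraries LP cells, with 9 molecules, were at least 3.91-fold higher than basal cells at the limit of 3 counts over the group. These differences had no test, and the intervals of the 3 stages overlapped within each lineage.

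**Figure D3:**
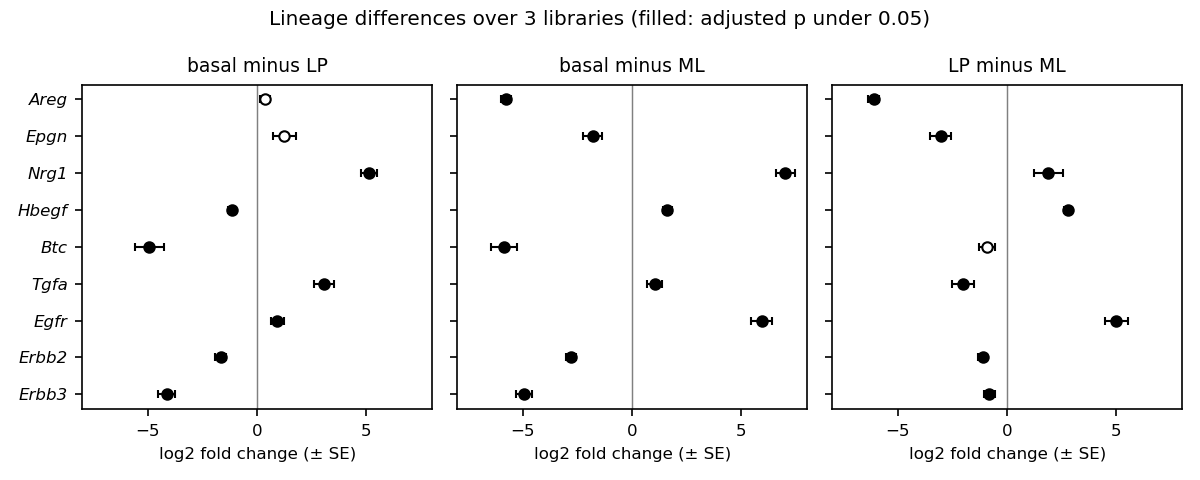
Log2 fold changes with standard errors for the 9 genes that passed the filter on low counts, for basal minus LP, basal minus ML and LP minus ML cells over 3 libraries. Filled points had an adjusted p-value under 0.05 in edgeR. Open points mark Areg and Epgn in basal minus LP and Btc in LP minus ML.

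The change over puberty, estrus and diestrus was then described within each lineage. Ratios are on a log2 scale with 1 CPM added, among genes with a mean of at least 20 CPM over the pair. A gene can reach that mean through 1 stage alone, which favours a large ratio, among all genes as well. In ML cells of puberty, 3 of the 5 genes at that level were at least 2-fold higher than in estrus, against 5.60% of all genes, and none was 2-fold lower, against 1.52%. These were Areg (2.39, or 5.25-fold without the added CPM), Epgn (5.07, or 67.9-fold without the added CPM) and Hbegf (1.67, or 3.30-fold). Epgn and Hbegf reached the 20 CPM limit through puberty, with 0.955 and 18.1 CPM in estrus and 2.84 and 19.9 CPM in diestrus. Their passes against both adult libraries were thus favoured by the filter and add no support to the counts. With 4 Epgn molecules in estrus the Epgn ratio depends on the added CPM, and it was 3.55 with 5 CPM added, and 3.16 against diestrus. Against diestrus, 2 of the 5 were at least 2-fold higher in puberty, against 3.25% of all genes, namely Epgn (4.10) and Hbegf (1.54), while Areg was 0.80 higher. None was 2-fold lower, against 1.51% of all genes. Diestrus ML cells exceeded estrus ML cells for Areg by 1.59, the only 1 of 3 genes past 2-fold, against 4.41% of all genes, and none was 2-fold lower, against 1.42%. The median ratio of all genes lay between 0.01 and 0.06 in these ML comparisons. Erbb2 in ML cells moved by at most 0.29 in size and Erbb3 by at most 0.55.

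In basal cells, Nrg1 was 1.99 higher in puberty than in estrus and 1.65 higher than in diestrus, and the diestrus and estrus intervals overlapped. Areg was past 2-fold as well, at 2.62 and 1.70, at levels within the range of the ML markers described above. Against estrus, where basal cells had 11.7 CPM, Areg reached the 20 CPM limit through puberty. Nrg1 and Areg were 2 of 3 genes in each comparison. Among all genes, 5.93% were at least 2-fold higher in puberty than in estrus and 3.44% than in diestrus. None was 2-fold lower, against 4.33% and 2.02% of all genes. Between diestrus and estrus neither of 2 genes passed 2-fold, where 5.64% of all genes were higher in diestrus and 3.59% lower. Hbegf was higher in puberty by 0.98 and 0.53, the latter being 1.25 without cycling cells. Below the 20 CPM limit, basal Tgfa was 1.58 and 2.17 higher in puberty than in estrus and diestrus, with intervals apart. Basal Egfr was 0.30 lower in puberty than in estrus and 0.43 higher than in diestrus, with overlapping intervals in both. The ratio of diestrus to estrus was -0.73, with intervals apart but under 2-fold.

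In LP cells, Hbegf was higher in puberty by 0.89 against estrus and 0.73 against diestrus, with intervals apart but under 2-fold. Areg, at 1.25% to 1.90% of its ML level, was the only 1 of 3 genes past 2-fold in puberty against estrus (1.70), where 5.22% of all genes were higher and 2.13% lower. With 11.6 CPM in LP cells of estrus, Areg reached the 20 CPM limit through puberty. No member passed against diestrus, where 5.24% were higher in puberty and 2.03% lower, or between diestrus and estrus, where 5.94% were higher in diestrus and 4.30% lower. Erbb3 in LP cells was 0.44 lower in puberty than in estrus, whereas in ML cells it was 0.55 higher, and this contrast was not tested.

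Immediate early genes, which stimulation or stress induces quickly, moved with stage. The summed level of 7 immediate early genes (Fos, Fosb, Jun, Junb, Egr1, Ier2 and Atf3), a list chosen after the data were seen, was 5349 to 12497 CPM in the 3 lineages of puberty, 17528 to 29862 CPM in estrus and 11822 to 16008 CPM in diestrus. It was lowest in puberty in each lineage, where Areg and Hbegf were highest. Its part in the stage ratios was not tested, and stage cannot be told apart from library, animals or age.

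Areg also varied among ML cells. In puberty 82.7% of ML cells had at least 1 molecule, with an exact interval of 81.0% to 84.3%. The share was 43.1% (39.6% to 46.8%) among estrus cells, and diestrus cells lay between at 70.2% (66.7% to 73.6%). Thinned to 2000 molecules per cell, the shares were 79.1%, 33.7% and 66.4% of the 2016, 689 and 622 ML cells with at least that many. In basal cells 10.7%, 1.33% and 4.56% had a molecule (7.81%, 0.641% and 2.91% thinned), at median depths of 2562.5 to 3427 against 4090.5 to 4662 in ML cells. Among basal cells of puberty, the highest cell held 31 Areg molecules, the 3 clusters had 22.6, 35.3 and 119 CPM, and cycling cells had 143 CPM against 49.7 CPM in the others. Whether some basal cells make Areg was not tested. The median ML cell held 9 Areg molecules in puberty, 0 in estrus and 4 in diestrus, and the highest held 138, 69 and 100. In estrus, the 10% of ML cells with the most Areg carried 68.2% of the Areg molecules, against 38.3% in puberty and 40.9% in diestrus.

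Clusters of ML cells differed in Areg within each library, on the CPM scale without TMM. In puberty the 6 clusters ranged from 1686 to 3957 CPM. In estrus 2 of the 3 clusters had 334 and 376 CPM and the other had 1449 CPM in 142 cells. Of those 142 cells 47.9% were cycling, against 0% and 0.37% in the 2 lower clusters. This cluster thus shares cells with the cycling ML cells described next. In diestrus the 4 clusters ranged from 207 to 2686 CPM. All 3 estrus clusters were thus below every puberty cluster.

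Cycling ML cells, which had at least 3 of 10 cell cycle genes, had more Areg than other ML cells in 3 of 3 libraries. The levels were 3677 CPM (3596 to 3759) against 2862 CPM (2828 to 2897) in puberty. In estrus they were 1308 CPM (1223 to 1397) against 573 CPM (546 to 601), and in diestrus 2491 CPM (2381 to 2605) against 1687 CPM (1639 to 1737). Cycling ML cells had median totals of 9322 to 9892 molecules and the others 3903 to 4471.5.

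Cells with a molecule of Pgr, the progesterone receptor gene, differed from other ML cells in a direction that changed between libraries. In puberty, Areg was 3495 CPM (3419 to 3572) in ML cells with Pgr and 2895 CPM (2860 to 2930) in those without. In estrus the values were 671 CPM (596 to 754) and 717 CPM (688 to 747), and in diestrus 1359 CPM (1261 to 1463) and 1956 CPM (1906 to 2007). Cells with Pgr were thus higher in puberty, lower in diestrus and not apart in estrus.

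**Figure D4:**
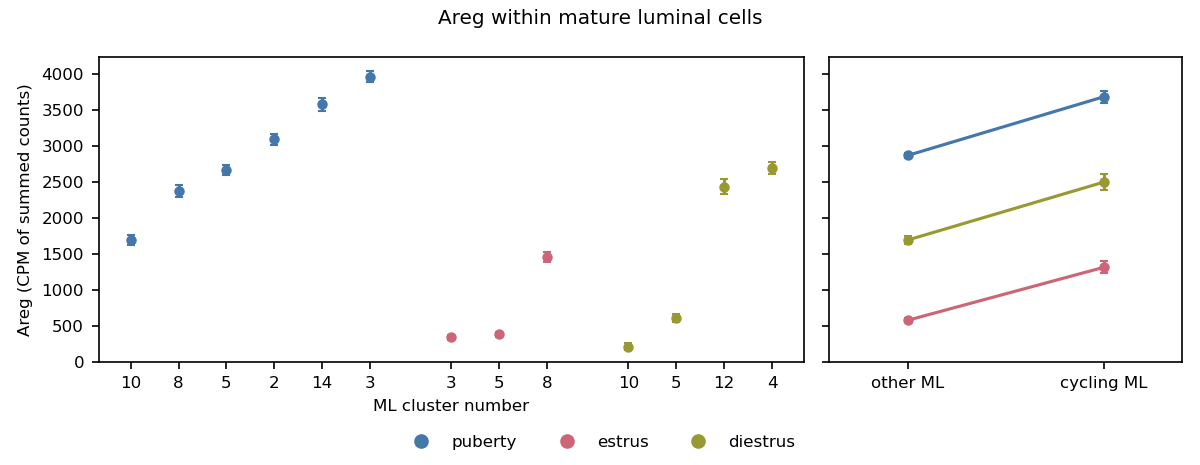
Areg in CPM of summed counts, without TMM, in the ML clusters of each library on the left, ordered by level, and in cycling and other ML cells on the right. Bars are exact Poisson 95% intervals. The estrus clusters lie at 334, 376 and 1449 CPM, and cycling ML cells lie above the others in each of the 3 libraries.

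Among basal cells, the Nrg1 level was higher in cycling cells than in others in 3 of 3 libraries, with intervals apart in 2. The levels were 173 CPM (150 to 198) against 92.4 CPM (81.8 to 104) in puberty and 81.2 CPM (61.9 to 105) against 21.2 CPM (16.7 to 26.5) in estrus. In diestrus they were 44.7 CPM (36.2 to 54.5) against 33.3 CPM (26.7 to 41.1), with intervals that overlapped. Basal Hbegf was lower in cycling cells in puberty (43.8 against 160.4 CPM) and estrus (16.5 against 81.8 CPM) and higher in diestrus (119 against 72.0 CPM). Cycling basal cells had median totals of 6732 to 9135 molecules, against 2482 to 2836 in the others.

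The other ligands of the family were barely counted. Of Egf, Ereg, Nrg2, Nrg3 and Nrg4, only Nrg4 passed the filter, and it was higher in ML cells than in basal cells (basal against ML -5.42 ± 0.83, adjusted p = 0.000278, edgeR) with at most 5.34 CPM. Ereg, which lies between Epgn and Areg on chromosome 5, reached 11.3 CPM in basal cells of puberty and at most 0.937 CPM elsewhere.

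Of the 5 genes for the release of ligands, the sheddase gene Adam10 was higher in ML cells than in basal cells (basal against ML -2.04 ± 0.19, adjusted p = 6.7e-06, edgeR) and LP cells (LP against ML -2.41 ± 0.20, adjusted p = 6.32e-06). Timp3, a secreted inhibitor of sheddases, was highest in basal cells (basal against ML 6.40 ± 0.56, adjusted p = 4.82e-06). Rhbdf2, an iRhom that carries ADAM17 to the surface, was lower in basal than in LP cells (-1.88 ± 0.25, adjusted p = 0.000133), and Rhbdf1 was higher in LP than in ML cells (0.88 ± 0.19, adjusted p = 0.00362). Adam17, which sheds AREG, had 6.62 to 13.0 CPM in all 9 sums and was not called in any comparison.

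Of the 5 adaptor genes, Grb7, which binds ERBB2, had the order of Erbb2 and Erbb3, with basal below LP cells (-3.16 ± 0.39, adjusted p = 8.8e-05, edgeR) and LP below ML cells (-1.07 ± 0.28, adjusted p = 0.0108). Gab1 was highest in LP cells (LP against ML 2.05 ± 0.26, adjusted p = 0.000112). Of the 10 RAS-MAPK genes, 2 were higher and 3 lower in basal than in ML cells, close to the 29.0% and 25.9% of all genes, and the median of the list was -0.22 against 0.03 for all genes. Hras was higher in basal than in ML cells (1.17 ± 0.15, adjusted p = 7.46e-05), and Mapk3, which encodes ERK1, was lower in basal than in LP cells (-0.93 ± 0.15, adjusted p = 0.000436).

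Of the 8 receptor inhibitor genes, 7 were tested, and 3 were higher and none lower in basal than in ML cells and likewise in LP than in ML cells. Among all genes 29.0% were higher in basal and 21.2% in LP cells, and 7 genes are few to set against these shares. Errfi1, whose product MIG6 blocks the EGFR kinase, was 2.45 ± 0.29 higher in basal cells (adjusted p = 4.89e-05, edgeR) and 2.77 ± 0.30 higher in LP cells (adjusted p = 3.91e-05) than in ML cells. Lrig1 differed in the same direction (basal against ML 1.75 ± 0.35, adjusted p = 0.00158). Lrig3 was not counted in ML cells, and over the 3 libraries basal cells were at least 58.0-fold and LP cells at least 14.2-fold higher than the limit of 3 counts.

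Among 14 feedback inhibitors and targets of RAS-MAPK signalling, 12 were higher in basal than in ML cells and 1 was lower, where 29.0% of all genes were higher. The median log2 fold change was 2.44 against 0.03 for all genes. Between LP and ML cells, 8 were higher in LP and 2 higher in ML, where 21.2% and 19.0% of all genes were, with a median of 1.45 against 0.04. Dusp6, an ERK phosphatase, was 2.89 ± 0.13 higher in basal (adjusted p = 5.58e-08, edgeR) and 2.66 ± 0.13 higher in LP than in ML cells (adjusted p = 1.77e-07). Fosl1 was 3.87 ± 0.18 higher in basal than in ML cells (adjusted p = 6.19e-08), and Dusp5 was 4.13 ± 0.19 higher in LP than in ML cells (adjusted p = 1.51e-07). Phlda1 was also higher in LP cells (3.04 ± 0.18, adjusted p = 6.36e-07). Dusp4 was higher in ML than in basal and LP cells, and Etv4 was highest in basal cells and higher in ML than in LP cells. Between stages, 5 of 11 list genes in basal cells were at least 2-fold higher in puberty than in estrus and 1, Myc, was lower, against 5.93% and 4.33% of all genes. Against diestrus, 3 of 11 were higher in puberty, against 3.44%. In LP cells 1 of 6 was higher in puberty than in estrus and 2 of 6 than in diestrus, against 5.22% and 5.24%, and in ML cells 2 of 6 and 1 of 5, against 5.60% and 3.25%. Between diestrus and estrus, 2 of 11 were higher and 1 lower in basal cells, against 5.64% and 3.59% of all genes. In LP cells 1 of 6 was higher and 1 lower, against 5.94% and 4.30%. None of 4 passed in ML cells, against 4.41% higher and 1.42% lower. Lists this short are few genes to set against these shares.

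**Figure D5:**
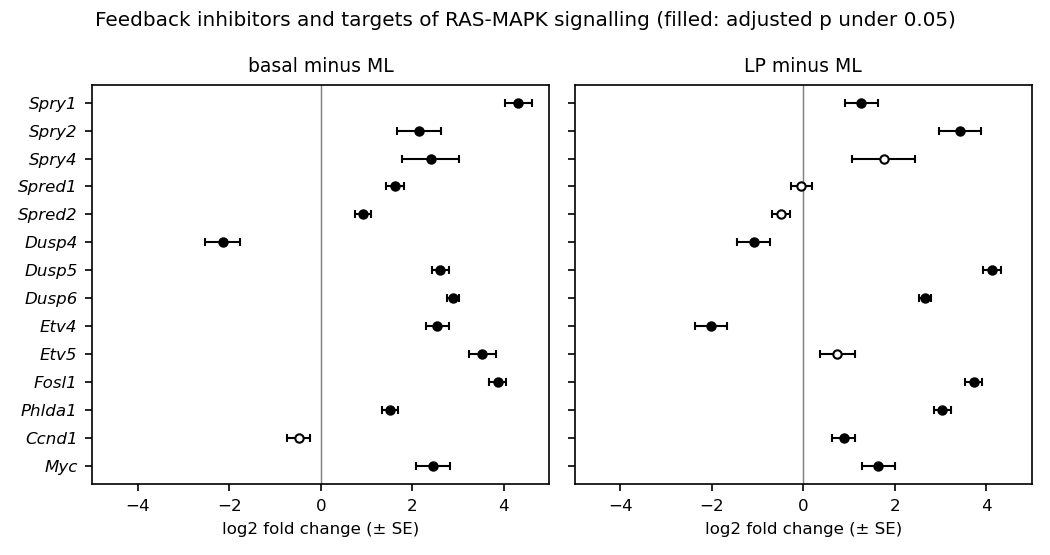
Log2 fold changes with standard errors of 14 feedback inhibitors and targets of RAS-MAPK signalling, for basal minus ML and LP minus ML cells. Filled points had an adjusted p-value under 0.05 in edgeR. In basal minus ML, 12 filled points lie to the right of 0 and Dusp4 lies to the left.

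All 4 hormone genes were higher in ML than in LP and in basal cells: the receptor genes Esr1 and Pgr and the progesterone-induced ligands Tnfsf11 and Wnt4. Among all genes, 25.9% were higher in ML than in basal cells and 19.0% than in LP cells. The direction of Tnfsf11 held in 2 of 3 libraries. Wnt4 differed by -3.66 ± 0.20 for basal against ML cells (adjusted p = 2.01e-07, edgeR), and Pgr by -5.13 ± 0.28 for LP against ML cells (adjusted p = 3.5e-07). In ML cells Tnfsf11 was 3.94 CPM in puberty, 0 in estrus and 76.6 CPM in diestrus, an order that differs from that of Areg, which was highest in puberty.

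The genes whose levels were most like each member were sought among 5042 genes, by Pearson correlation of log2 levels over the 9 sums, which share 3 libraries, and are given as a description. Areg was most like Zfp664 (0.986), Gpx3 (0.984) and Fam25c (0.979). Epgn was most like Pgs1 (0.944), Gng12 (0.943) and Chd4 (0.914). Nrg1 was most like Cdkn1c (0.990), Fscn1 (0.988) and Col4a2 (0.983). Hbegf was most like Igsf3 (0.977) and 2 genes of the feedback list, Dusp5 (0.969) and Phlda1 (0.968). For the receptors, Egfr was most like Plekhb1 (0.992), Erbb2 like Fbxo6 (0.993) and Erbb3 like Aqp5 (0.991). The nearest genes were Sft2d2 (0.983) for Btc and Ppp3r1 (0.985) for Tgfa.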

How the data were processed

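Mouse mammary epithelial cells had been captured on the 10x Genomics Chromium with the 3′ protocol and sequenced on an Illumina NextSeq. The authors made the deposited tables with Cell Ranger 2.0 on the build mm10, and each value is a count of molecules (UMIs) per gene and barcode. The puberty tables shared 5387 barcodes, 99.2% of the first, with totals correlated at 0.997, and were used as 1 library from the first table. The 3 libraries held 25303015, 10962454 and 11868593 counts in puberty, estrus and diestrus.

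Cells were clustered per library with leidenalg 0.10.2 (2000 variable genes without members, pathway, cell cycle, mitochondrial and ribosomal genes, 20 components, 15 neighbours, resolution 1). A cluster of at least 20 cells took a lineage when its mean z over 8 markers exceeded the other lineages by 0.5. The other lineages' z also had to be below 0, and a minimum number of the lineage's markers had to be detected. The top genes of the cluster could not hold more markers of another lineage. A cluster of low totals needed a marker of its lineage among its top genes. Clusters that failed any of these rules were left out. No doublet caller was run, and cells over 2 times the median total of their class were left out as an alternative. Counts were summed per lineage and library and tested with edgeR 4.0.16 in R 4.3.3 (TMM, filterByExpr, library block, quasi-likelihood F test, Benjamini-Hochberg adjustment, threshold 0.05). Standard errors were the size of the fold change over the square root of F. The fit was also run on data simulated from the means and spread of the main fit, and the outcome is not given here. Shares have exact Clopper-Pearson intervals. Thinned shares leave out the cells with fewer than 2000 molecules. Each stage was 1 library, and p-values rest on how much the lineage differences vary over these libraries, which differ in stage. Differences in level between libraries are taken up by the block.

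Named genes were the 10 members, up to 4 genes of each pathway list with the smallest adjusted p-value in any comparison, and up to 3 genes of most similar pattern. Adam17, Ereg, Dusp4, Etv4, Myc, Mien1 and the immediate early genes were named after their values were seen. Members and lists were chosen with earlier results of these data known. Gene positions came from GENCODE release M21. Alternatives were DESeq2 1.42.0, no filter, no block, each library left out, marker score classes, the second puberty table, removal of cycling or high-total cells, a threshold of 0.01, other scalings and a pseudocount of 5 CPM.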

Additional observations from a re-analysis of the deposited data

How the results depend on the processing

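No member that was called changed direction under any alternative that gave a value. Areg in basal against LP cells, which was not called, ranged from -0.41 with marker score classes to 0.67 without the diestrus library, and basal Hbegf in diestrus against estrus went from 0.45 to -0.26 without cells of high totals. No paired analysis of stages was possible because each stage had 1 library. Lineages were compared within libraries through the library block. Calls between basal and ML cells numbered 9, and 7 to 9 with a library left out. Between basal and LP cells there were 7, and 6 to 8 with a library left out. Between LP and ML cells there were 8, and 5 to 8 with a library left out, 5 being without puberty. Without the library block, LP against ML had 4 calls, and all genes called there fell from 4498 to 2908. Under DESeq2 the counts for basal against LP, basal against ML and LP against ML were 7, 7 and 6.

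The number of members past 2-fold between stages changed in basal and LP cells. Without cells of high totals it was 1 in basal cells for puberty against estrus (2 as reported), 1 in basal cells for diestrus against estrus (0 as reported) and 1 in LP cells for puberty against diestrus (0 as reported). Without cycling cells it was 3 in basal cells for puberty against estrus and for puberty against diestrus (2 as reported in each), and it was 3 with the second puberty table for puberty against estrus and without cells of high totals for puberty against diestrus. Marker score classes also gave 1 in LP cells for puberty against diestrus. The mean of scaled counts over cells gave 0 in LP cells for puberty against estrus (1 as reported). The counts in ML cells stayed at 3, 2 and 1 under every alternative run. The causes were not tested. With 1 library per stage, counting error is the only error shown for stage ratios, and genes with few molecules, such as Erbb4 and adult Epgn, are limited by depth.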
